A study of Homo sapiens with 6 samples.

Results

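The miR-29 family was measured by 7 probes on miRNA arrays of the Panc-1 line, which was established from a pancreatic ductal adenocarcinoma and is epithelial in origin. The probes were taken by name alone, from 2565 miRNA probes on each array, and they cover both strands of every precursor of the family (miR-29a, miR-29b-1, miR-29b-2 and miR-29c). Of the 6 arrays, 3 held RNA from control cells without added TGF-β and the other 3 held RNA from cells given TGF-β at 10 ng/mL, with 72 h in culture for both groups. The question is whether the levels of these miRNAs differed after treatment with TGF-β, a cytokine that drives epithelial-mesenchymal transition (EMT) and the deposition of matrix. Nothing in the labels says that the 3 samples of a group came from separate cultures, so the p-values measure only the spread between these samples, which may be technical. The arrays of a group also share a chip code that differs between the groups, and chip and treatment cannot be told apart.

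miRNAs are short RNAs cut from a hairpin precursor, and 1 arm of the hairpin, the guide strand, is mostly kept and pairs with target mRNAs through its seed, the bases near its 5′ end. In the miR-29 family the guide comes from the 3p arm, and the 5p arm is the passenger strand, which is mostly degraded. The family is known for holding down mRNAs of collagens, fibrillins, elastin and other matrix proteins, and in fibroblasts and pancreatic stellate cells TGF-β has been described to lower it as matrix is laid down.

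The 3 guide strands are shown first because they share a seed and differ by few bases, which sets how far their probes could tell them apart. Sequences are those of RefSeq for GRCh38.p14, in which all 7 members were matched, and capitals mark the seed, bases 2 to 8 counted from the 5′ end.
hsa-miR-29a-3p: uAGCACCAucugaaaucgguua
hsa-miR-29b-3p: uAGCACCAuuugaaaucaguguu
hsa-miR-29c-3p: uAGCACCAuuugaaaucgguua
Counted from 1 at the 5′ end, miR-29a-3p differs from miR-29c-3p by the single substitution C10U. From miR-29c-3p to miR-29b-3p there are 3 substitutions over 22 compared positions (G18A, U21G and A22U), and miR-29b-3p is longer by its last base. The last bases of miR-29b-3p form the aguguu element that is known to direct this miRNA to the nucleus. Of the 2588 miRNA names on the array, 2281 had a sequence in RefSeq, and among those matched none outside the family shared the seed AGCACCA. Probe sequences are not used here, so how far the probes separate the guides was not tested.

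The 4 passenger strands are shown because each belongs to 1 precursor, whereas miR-29b-3p can come from both miR-29b genes.
hsa-miR-29a-5p: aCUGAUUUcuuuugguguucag
hsa-miR-29c-5p: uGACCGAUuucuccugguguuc
hsa-miR-29b-1-5p: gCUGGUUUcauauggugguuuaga
hsa-miR-29b-2-5p: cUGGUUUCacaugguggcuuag
The 5p arms do not share a seed. When miR-29b-1-5p is read from its second base, 20 of 22 positions are identical to miR-29b-2-5p and the substitutions are U11C and U19C, numbered along miR-29b-1-5p. The shift of 1 base at the 5′ end gives these arms different seeds, CUGGUUU and UGGUUUC. None of the 4 seeds occurred in another matched miRNA of the array. How far the probes separate the passenger strands, and the near-identical miR-29b pair above all, was likewise not tested.

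The genes lie in 2 clusters on the minus strand. MIR29A (130876747 to 130876810) and MIR29B1 (130877459 to 130877539) are on chromosome 7 of GRCh38.p14 with 648 bases between them. Between MIR29B1 and the interval of the lncRNA gene LINC-PINT there are 22 bases. MIR29C (207801852 to 207801939) and MIR29B2 (207802443 to 207802523) are on chromosome 1 with 503 bases between them, and both lie inside the interval of their host lncRNA gene MIR29B2CHG (207801518 to 207822703). No other miRNA gene lies within 10 kb of either cluster. The array files carry no coordinates.

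All 7 members were detected on all 6 arrays. Detection meant a signal above the mean of the blank spots, which carry no probe, by more than 2 SD, and limits were 19.5 to 22.8 intensity units. Both the mean and the SD were taken after trimming 5% of the blank spots at each end, which narrows the SD. The signals of miR-29a-3p were 5050 to 7456 blank SDs above the blank mean, and those of miR-29b-3p were 3372 to 7964. miR-29c-3p stood 398 to 621 blank SDs above it. The passenger strands miR-29a-5p, miR-29b-1-5p and miR-29b-2-5p were also clear of the background, at 70.2 to 126, 103 to 168 and 32.2 to 51.8 blank SDs. miR-29c-5p was the dimmest member for its own background, at 4.09 to 8.78 blank SDs, so that a shift of 1 blank SD is a large part of its value. Signals of different probes depend on how well each probe binds and were not set against each other as amounts.

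The values in each array are given as scaled intensities: the blank mean was subtracted and arrays were brought to a common median over the 1282 miRNAs detected on all of them. hsa-miR-29a-3p, the guide of the first precursor on chromosome 7, gave 3498, 3619 and 3630 in the control samples and 3816, 3797 and 3562 in the TGF-β samples. Its groups overlapped, since TGF-β replicate 3 lay among the controls. The means were 3582 ± 73.2 and 3725 ± 141 (SD, n = 3 each).

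hsa-miR-29b-3p, the guide made by both miR-29b genes, gave 2335, 2992 and 4269 in control samples and 3900, 4055 and 3312 in TGF-β samples. The highest and the lowest arrays of this probe were both controls, so the control samples enclosed the TGF-β samples. Its means were 3199 ± 983 and 3756 ± 392 (SD, n = 3 each), and the control SD was the widest of the guides relative to its mean.

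hsa-miR-29c-3p, the guide of the chromosome 1 precursor, gave 336, 371 and 301 in control samples and 321, 316 and 268 in TGF-β samples. The 2 highest arrays were controls and the lowest was a TGF-β array, while control replicate 3 lay below 2 of the TGF-β arrays. Its means were 336 ± 34.6 and 302 ± 29.1 (SD, n = 3 each).

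Among the passenger strands, hsa-miR-29a-5p gave 49.0, 59.0 and 53.3 in control samples and 58.2, 64.4 and 47.4 in TGF-β samples, with the TGF-β samples enclosing the controls. hsa-miR-29b-1-5p gave 71.5, 101.5 and 88.7 in control samples and 74.4, 85.5 and 99.4 in TGF-β samples, and here the controls enclosed the TGF-β samples. hsa-miR-29b-2-5p, named for the chromosome 1 copy of miR-29b, gave 22.4, 26.9 and 25.9 in control samples and 22.6, 26.4 and 21.8 in TGF-β samples. Its groups overlapped.

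hsa-miR-29c-5p gave 4.33, 4.03 and 5.76 in control samples and 3.59, 4.14 and 2.76 in TGF-β samples. TGF-β replicate 2 lay just above the lowest control on this scale, and its means were 4.71 ± 0.928 and 3.49 ± 0.695 (SD, n = 3 each). The difference of the means was 1.21 scaled units, while the trimmed blank spots scaled in this way had an SD of 0.509 to 0.701 units.

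**Figure D1:**
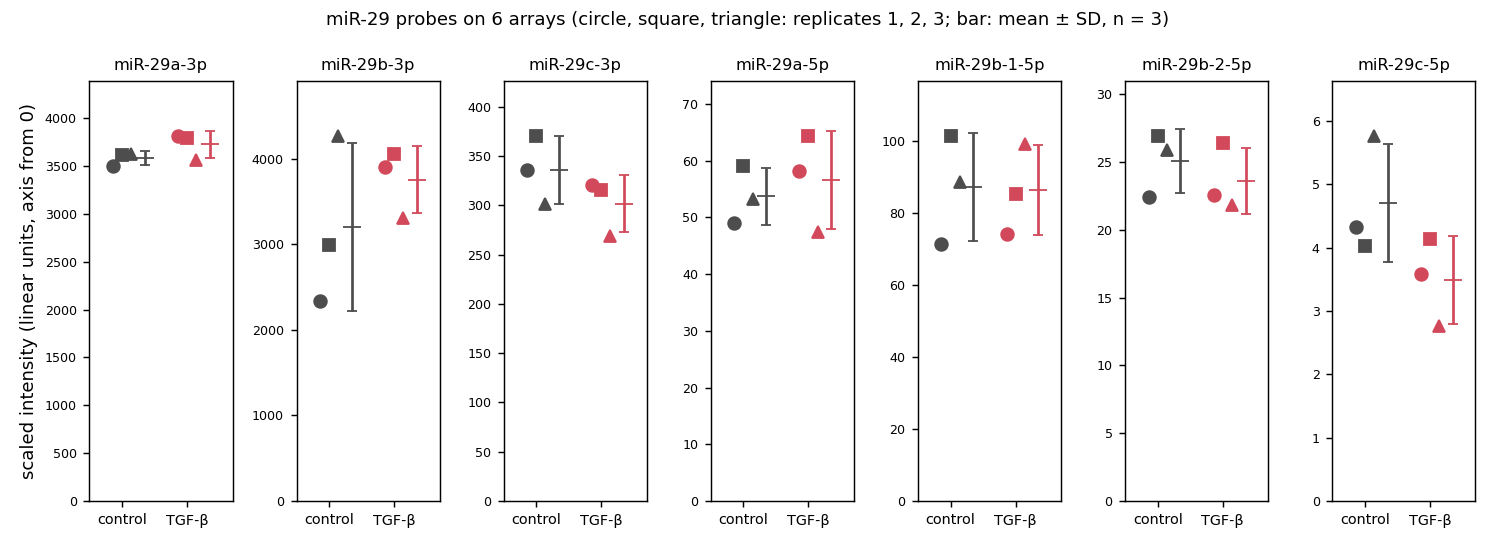
Scaled intensity (linear units, each axis from 0) of the 7 miR-29 probes in control (grey) and TGF-β (red) samples, with 1 point per array and the mean ± SD (n = 3) beside each group. The groups overlap in every panel, and miR-29b-3p has its lowest and its highest array among the controls.

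For the test of TGF-β against control, arrays were quantile normalized on the linear scale, values under 1 unit were set to 1, and log2 values were fitted with limma. The fit covered 1457 miRNAs, those that all arrays of 1 group or of both detected. In this fit 58 miRNAs (3.98%) were called at an adjusted p under 0.05, of which 20 (1.37%) were lower and 38 (2.61%) higher. Leaving out TGF-β replicate 2 gave 29 calls and leaving out TGF-β replicate 3 gave 33. The share of calls that were higher was 65.5%, compared with 77.1% without normalization between arrays and 87.1% in the values the authors deposited. Of the 7 miR-29 members, limma called 0, and it also called 0 with median scaling, where 49 miRNAs (3.36%) were called in all. At an unadjusted p under 0.05 there was 1, miR-29c-3p, compared with 200 of all tested miRNAs (13.7%), and the methods' t-test gave 0 members before or after adjustment, compared with 195 (13.4%) and 17 (1.17%) of all tested miRNAs. A count of 0 among 7 probes is near what the background share of 3.98% gives, and it is not a result about the family.

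miR-29c-3p had a log2 fold change of -0.24 (standard error 0.10, 95% interval -0.46 to -0.029, adjusted p = 0.274 from limma), a fold of 0.844. Of the 22 alternative settings, 9 changed only the floor, the filter or the test and left this value as it was, and the other 13 gave -0.35 to -0.051. Over the 22 settings the adjusted p was between 0.0862 and 0.987. The exact permutation test over the 6 arrays gave p = 0.2 (2-sided), where the smallest p that 3 against 3 allows is 0.1. With none of these settings was this guide called.

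miR-29c-5p, from the other arm of the same hairpin, had the lowest fold change of the family, -0.46 (standard error 0.22, 95% interval -0.95 to 0.031, adjusted p = 0.409 from limma). After quantile normalization its lowest control value was above its highest TGF-β value (2-sided p = 0.1 in the exact permutation test), and the groups were likewise apart, in either direction, for 275 of the tested miRNAs (18.9%). With median scaling the groups overlapped and the exact permutation test gave p = 0.2. The 13 settings that moved its value gave -0.57 to -0.038.

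miR-29a-3p and miR-29b-3p, the brightest guides over their background, had log2 fold changes of -0.11 (standard error 0.055, adjusted p = 0.427 from limma) and 0.035 (standard error 0.13, adjusted p = 0.966 from limma). Their quantile-normalized values rested on rank: miR-29a-3p was 15th or 16th of all miRNA probes on every array and its 3 TGF-β values were equal within 0.00060 on the log2 scale, so the standard error of this fit says little about its spread. With median scaling, which keeps the distances between bright probes, miR-29a-3p was 0.056 (standard error 0.10, 95% interval -0.16 to 0.27) and miR-29b-3p 0.27 (standard error 0.16, 95% interval -0.076 to 0.62), with adjusted p of 0.927 and 0.560 from limma. The sign of miR-29a-3p thus turned with the scaling. miR-29b-3p was also above 0 in the deposited values (0.37), where the median of all tested miRNAs was 0.11. Relative to that median it was at 0.26. Within the quantile fit, its value of 0.035 became -0.046 without control replicate 1, -0.055 without control replicate 2 and -0.038 without TGF-β replicate 2.

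The other passenger strands gave log2 fold changes of 0.047 for miR-29a-5p, -0.0029 for miR-29b-1-5p and -0.13 for miR-29b-2-5p, with adjusted p of 0.928, 0.998 and 0.714 from limma. The direction of miR-29a-5p turned without TGF-β replicate 1 (-0.028) or TGF-β replicate 2 (-0.010). That of miR-29b-1-5p turned without control replicate 2 (0.097), control replicate 3 (0.0041), TGF-β replicate 1 (0.065) or TGF-β replicate 2 (0.022). miR-29b-2-5p was below 0 in 12 of the 13 settings that moved its value, the exception being the deposited values (0.016). There the median of all tested miRNAs was itself 0.11, and relative to it miR-29b-2-5p was at -0.093.

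The intervals depend on the fit. For 5 of the 7 members (both strands of miR-29a, both miR-29b passenger strands and miR-29c-3p), the 95% intervals of the fold change lay between 0.727 and 1.26 in both the quantile and the median-scaled fit, short of a 1.5-fold change in either direction. The interval of miR-29b-3p reached 1.53 with median scaling, and that of miR-29c-5p reached down to 0.517 with quantile normalization and 0.524 with median scaling. The quantile interval of miR-29a-3p carries the limit of rank given above, and with the local background as the background the standard errors of all 3 guides were too large for such a bound. For the remaining settings, the methods' t-test and the deposited values among them, no such bound was computed.

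**Figure D2:**
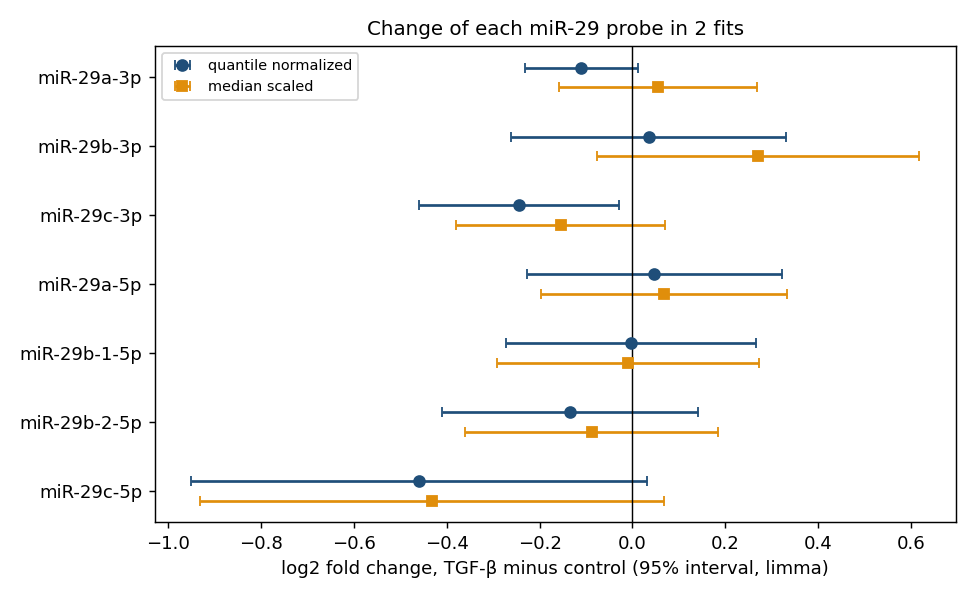
Log2 fold change of each miR-29 probe, TGF-β minus control, with its 95% interval from limma (n = 3 each), after quantile normalization (circles) and median scaling (squares). The quantile interval of miR-29c-3p (-0.46 to -0.029) is the only one that leaves out 0, and miR-29a-3p lies on opposite sides of 0 in the fits.

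Read by strand, 2 of 3 guides and 3 of 4 passenger strands were below 0, with medians of -0.11 and -0.068, beside a median of -0.013 over all tested miRNAs. With median scaling 1 of 3 guides and 3 of 4 passenger strands were below 0, with medians of 0.056 and -0.049, beside 0.015 over all tested. Read by gene cluster, the 3 probes that belong only to chromosome 1 (miR-29c-3p, miR-29c-5p and miR-29b-2-5p) had a median of -0.24 and were all below 0, and with median scaling the median was -0.15 and again all were below 0. The 3 probes that belong only to chromosome 7 (miR-29a-3p, miR-29a-5p and miR-29b-1-5p) had medians of -0.0029 and 0.056 in the same fits. In the deposited values the median of all tested miRNAs was itself 0.11, and relative to it the chromosome 1 probes were at -0.16, -0.43 and -0.093 and the chromosome 7 probes at 0.049, 0.061 and -0.018. None of these probes was called, and the clusters were not shown to differ. Whether each probe reads only the strand of its own cluster was not tested.

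Whether members changed unequally was examined within arrays, as differences of log2 values between members. A scale factor of the array drops out of such a difference, but quantile normalization can still move it. Over 7 such differences none reached the smallest possible p of 0.1 in the exact permutation test. The difference of miR-29c-3p and miR-29b-3p moved by -0.28 from control to TGF-β (SD 0.43 within the controls and 0.11 within the TGF-β samples, exact permutation p = 0.4, adjusted p = 0.7), and by -0.15 without control replicate 1, -0.16 without control replicate 2 and -0.53 without control replicate 3. The near-identical guides miR-29c-3p and miR-29a-3p differed by -0.13 in their change (exact permutation p = 0.3, adjusted p = 0.7). This value ran from -0.19 to -0.051 with 1 array left out and was -0.21 with median scaling. Between the strands of 1 hairpin, the 3p change exceeded the 5p change by 0.22 for miR-29c and was below it by -0.16 for miR-29a (exact permutation p = 0.5 and p = 0.3). The miR-29c value turned without control replicate 3 (-0.011). The miR-29a value ran from -0.28 to -0.078 with 1 array left out and was -0.013 with median scaling. With median scaling the differences ran from -0.43 to 0.36 and their exact permutation p from 0.3 to 1. With 3 arrays a group this comparison cannot pass 0.05.

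**Figure D3:**
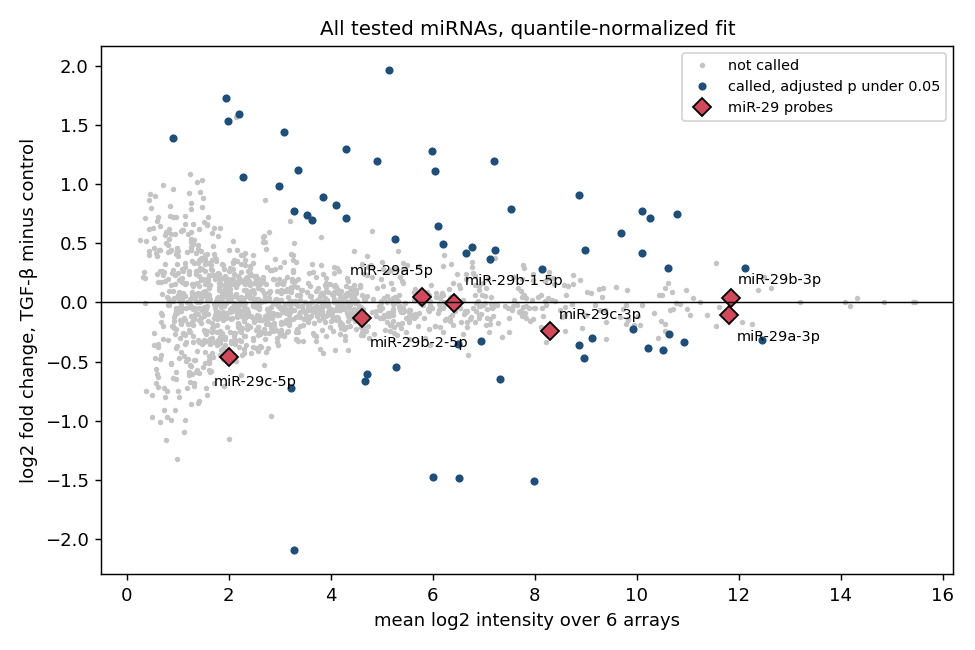
Log2 fold change (TGF-β minus control) against mean log2 intensity for the 1457 tested miRNAs after quantile normalization, with the 58 called miRNAs in blue and the 7 miR-29 probes as diamonds. The miR-29 probes run from 0.047 for miR-29a-5p down to -0.46 for miR-29c-5p, and none is among the called miRNAs.

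The scanner's local background was a large share of the signal, here as on bright spots in general: over all miRNA spots with a signal above 200 units, its median share per array was 0.434 to 0.990. On the 6 arrays the local background column was 0.297 to 0.938 of the signal of the same spot for miR-29a-3p, 0.251 to 1.00 for miR-29b-3p and 0.233 to 0.837 for miR-29c-3p. On control replicate 1 it exceeded the signal for miR-29b-3p, miR-29a-5p and miR-29b-1-5p, at 1.00, 1.06 and 1.08. The share was lowest on control replicate 2, TGF-β replicate 2 or TGF-β replicate 3 for 6 of the 7 members, and it was the highest on control replicate 1 for every one except miR-29c-5p. When this column was used as the background, limma called 0 of all miRNAs and 0 members, and the standard errors of the guides were far larger than with the blank spots, 1.42 for miR-29a-3p, 1.99 for miR-29b-3p and 0.651 for miR-29c-3p. The log2 fold change of miR-29b-3p was then 1.14, which is smaller than its standard error.

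**Figure D4:**
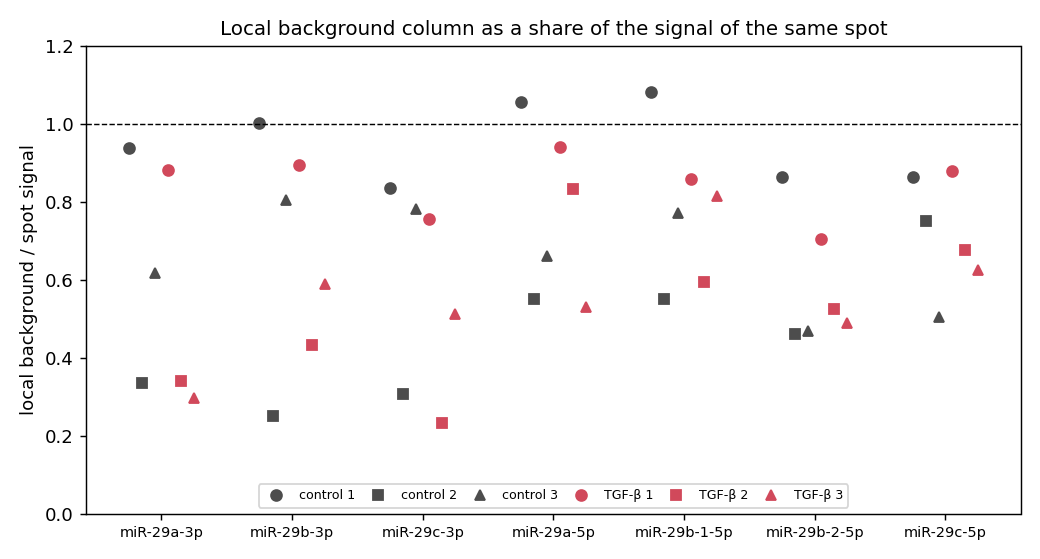
Local background divided by the signal of the same spot for the 7 miR-29 probes on each array, with the dashed line at a ratio of 1. Values run from 0.233 (miR-29c-3p) to 1.08 (miR-29b-1-5p) and differ between arrays of the same group.

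For the setting of the family, 20 miRNAs described as restraining matrix or TGF-β pathway genes were followed beside it. Of these, 17 were tested, 4 were called lower and 0 higher, beside 1.37% and 2.61% of all tested miRNAs. The list was chosen with earlier results of these data known, so its counts are a description and no test of enrichment. Their median log2 fold change was -0.11, beside -0.013 over all tested, and -0.0072 beside 0.015 with median scaling. The muscle miRNAs miR-133b and miR-133a-3p, which are known to restrain connective tissue growth factor, had log2 fold changes of -1.48 (standard error 0.083, adjusted p = 2.42e-06 from limma) and -1.47 (standard error 0.13, adjusted p = 3.62e-05). miR-30b-5p (-0.30, adjusted p = 0.0197) and miR-26a-5p (-0.23, adjusted p = 0.0497) were also called lower by limma, and both calls were lost with median scaling (adjusted p = 0.308 and 0.699).

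Of 16 miRNAs described as raised in fibrosis or by TGF-β, 15 were tested, 2 were called higher and 2 lower, beside 2.61% and 1.37% of all tested miRNAs, with a median of 0.017 (0.046 with median scaling). This list was likewise chosen with earlier results known, and its counts are a description. miR-181b-5p and miR-181a-5p rose by 1.28 (standard error 0.086, adjusted p = 5.88e-06 from limma) and 1.19 (standard error 0.079, adjusted p = 5.67e-06). miR-143-3p, a smooth muscle miRNA that was dim here (2.67 ± 1.22 scaled units in control and 8.78 ± 6.22 in TGF-β samples, SD, n = 3 each), had a log2 fold change of 1.57 (adjusted p = 0.0919 from limma) and was called higher with median scaling (1.60, adjusted p = 0.0235). miR-34a-5p, a target of p53, fell by 0.65 (adjusted p = 0.000833 from limma), and miR-10a-5p, which lies in a HOX gene cluster, fell by 0.40 (adjusted p = 0.0155). The profibrotic miR-21-5p had a log2 fold change of 0.034 (adjusted p = 0.799 from limma), and -0.065 with median scaling. Over both lists together there were 8 calls, and 5 without control replicate 2, without TGF-β replicate 2 or without TGF-β replicate 3.

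**Figure D5:**
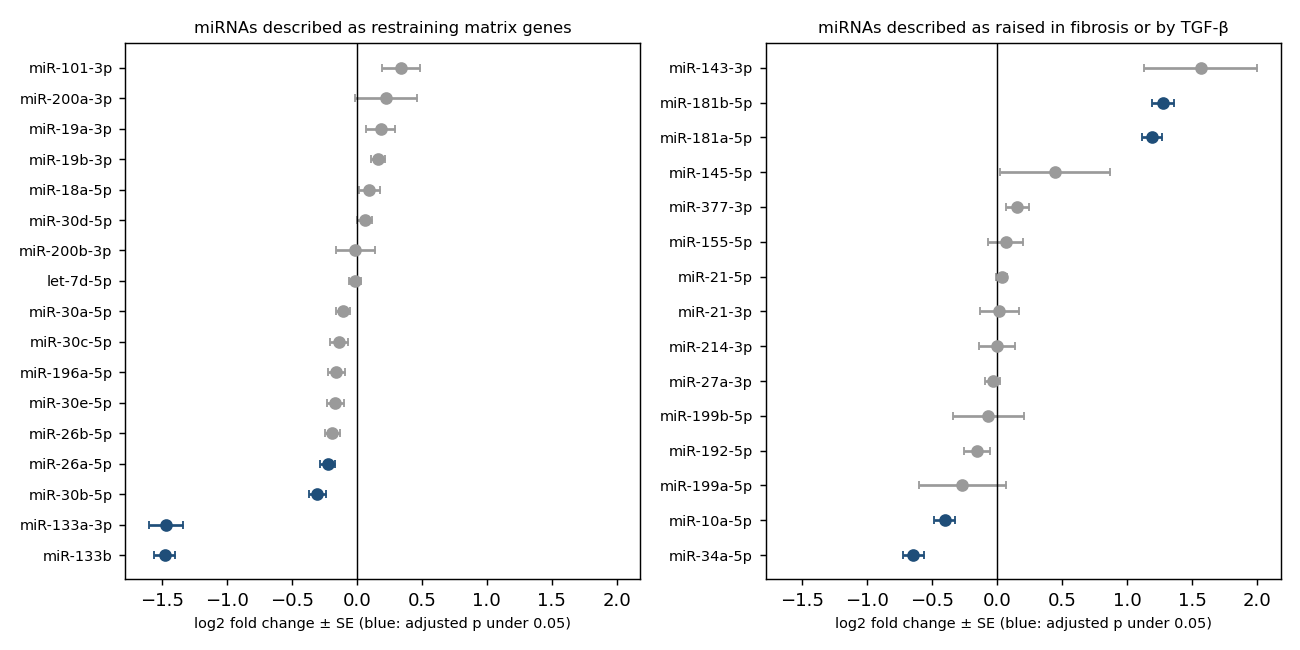
Log2 fold change ± standard error (TGF-β minus control, n = 3 each, quantile-normalized fit) of the tested miRNAs described as restraining matrix genes (left, 17) and as raised in fibrosis or by TGF-β (right, 15), with those at an adjusted p under 0.05 in blue. miR-133b and miR-133a-3p are lowest on the left, and miR-181a-5p and miR-181b-5p are called higher on the right.

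The miRNA whose profile over the 6 arrays was most like the mean profile of the 3 guides was miR-1273a (Pearson r = 0.978), followed by miR-3194-5p (0.961), miR-98-5p (0.960), miR-4700-3p (0.956) and let-7d-5p (0.954), out of 1275 miRNAs detected on all arrays. This is a description over 6 arrays that share chips and scaling. With median scaling the same 5 miRNAs had r of 0.360 to 0.818, so the order depends on the normalization.

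As a check of the labelled cell line, miRNAs that mark other cells were followed. The acinar markers miR-216b-5p and miR-217 were detected on 0 arrays, and miR-216a-5p on 2. The islet marker miR-375 was detected on 1 array and the hepatocyte marker miR-122-5p on 3. Of 6 blood cell markers 2 were detected on all arrays, with summed scaled intensities of 17.2 to 21.3 in control and 18.9 to 26.3 in TGF-β samples. Of 6 fibroblast and smooth muscle markers 4 were, with sums of 20.3 to 21.9 and 21.3 to 37.5. Their part in the values of the family was not tested. Of 7 epithelial markers 3 (miR-200a-3p, miR-200b-3p and miR-203a-3p) were detected on all arrays, at no more than 8.25 units each, with sums of 16.3 to 21.6 and 19.3 to 23.1. Among the others miR-429 was detected on 3 arrays, miR-200c-3p and miR-205-5p on 1 each, and miR-141-3p on 0. The endothelial marker miR-126-3p was detected on all arrays, at 131 to 140 units in control and 102 to 116 in TGF-β samples.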

How the data were processed

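Total RNA was labelled with Cy5 and read in 1 colour on 6 arrays (3 control, 3 TGF-β). The authors deposited, per array, unnormalized linear scanner output (median intensity of 3200 spots and of their local background) and a table of processed intensities. The deposited table was rebuilt from the scanner files as the signal minus the mean of 320 blank spots (5% trimmed at each end), scaled to a median of 25 over each array's detected miRNAs. Rebuilt and deposited values differed by at most 0.4999 units, with 0 mismatches in missing values. Array software and genome build are not given in the sources used here.

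The main analysis used the blank-spot background, quantile normalization of the miRNA probes, a floor of 1 unit and limma 3.58.1 (R 4.3.3) with an intensity trend and Benjamini-Hochberg adjustment. The blank spots were preferred because an earlier look at these data found the local background column to rise with the signal. The deposited table also subtracts the blank mean. Arrays correlated with each other at 0.984 to 0.992 with the blank-spot background and at 0.627 to 0.970 with the local one (1282 miRNAs). These correlations describe the arrays and do not measure that rise. miRNA spots flagged at any scanner gain (3 in all) were missing. Single values were compared with an exact permutation test (2-sided). The alternatives were other backgrounds, normalizations, floors and filters, the deposited values, limma without trend or with a robust fit, the methods' t-test (2-tailed, equal variances), the replicate number as a block, and each array left out. Cyclic loess was added after the data were seen. Scripts were tested on simulated data. All 7 members are named, and of the lists those called, with miR-21-5p and miR-143-3p, chosen after their values were seen. The members and lists were chosen with earlier results of these data known. Figures were drawn with Python 3.11.15 and matplotlib 3.10.9. The number of arrays limits the precision.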

Additional observations from a re-analysis of the deposited data

How the results depend on the processing

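The count of 0 members called was the same under all 22 alternatives. The 58 calls over all miRNAs became 0 with the local background, 35 without normalization, 20 without a filter, 31 with the deposited values, 31 without the intensity trend, 17 with the methods' t-test and 29 to 52 with 1 array left out. The 8 calls of the matrix miRNA lists became 0 with the local background, 5 without a filter, with the deposited values or without the trend, 3 with the methods' t-test and 5 to 7 with 1 array left out.

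The median of the guides, -0.11, is the value of miR-29a-3p, and both were 0.032 with the local background, 0.056 with median scaling, 0.015 with 75th percentile scaling, 0.032 without normalization, 0.16 with the deposited values and -0.015 with cyclic loess (-0.17 to -0.066 with 1 array left out). The local background turned miR-29a-5p (-0.055) and miR-29b-1-5p (0.0090), and the deposited values turned miR-29b-1-5p (0.092) and miR-29b-2-5p (0.016). In the deposited values the median of all tested miRNAs was itself 0.11. Relative to that median miR-29b-1-5p was at -0.018 and miR-29b-2-5p at -0.093, both still below. With 1 array left out, miR-29a-5p ran from -0.028 to 0.17, miR-29b-3p from -0.055 to 0.20 and miR-29b-1-5p from -0.11 to 0.097. Over the same settings miR-29b-2-5p ran from -0.23 to -0.059. Of the within-array differences, 3p minus 5p of miR-29a was 0.087 with the local background, and 3p minus 5p of miR-29c was -0.31 with it, -0.15 without background correction and -0.011 to 0.35 with 1 array left out. miR-29b-3p minus miR-29b-1-5p ran from -0.15 to 0.25 with 1 array left out. The cause was not tested.

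The replicate block gave 61 calls and 0 members. Same-numbered arrays correlated in their deviations at 0.13, 0.11 and -0.027, not all above 0.1, and 3 of 6 arrays correlated best with their own number, so they were not treated as pairs. miR-29c-5p is limited by signal over background.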
